A study of Homo sapiens with 24 samples.

Results

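The miR-30 family is a set of related microRNAs cut from 6 hairpins that lie in 3 pairs on chromosomes 1, 6 and 8. Its 10 members here were chosen by name among the 2656 mature miRNAs of the count table: the 5p and 3p arms of miR-30a, miR-30d and miR-30e, miR-30b-5p, miR-30c-5p, and the 3p arms of the 2 miR-30c hairpins, miR-30c-1-3p and miR-30c-2-3p. The rule used no measured value, though earlier results of these data were known when the family was chosen. They were measured by miR-seq in 24 libraries of total RNA, 6 groups of 4, from OV90, a human cell line established from epithelial ovarian cancer. The cells held a construct from which doxycycline induces an shRNA: shNeg, a negative control whose genotype the labels give as Wildtype, shRELA or shRELB. The genes RELA and RELB encode NF-κB subunits of the canonical and the alternative pathway. Each of the 3 was grown as adherent cells in RPMI 1640 with tetracycline-free serum, or as spheroids in ultra-low attachment vessels in a defined medium with serum replacement, EGF and FGF, the culture used to enrich for tumor-initiating cells. All 6 groups, the controls included, received 1 µg/ml doxycycline for 72 h. All 24 libraries come from 1 cell line into which the constructs were transfected, and whether each resulting line is a clone is not given in the sources used here. MiR-seq does not read the RELA and RELB mRNAs, so the depth of either knockdown is not seen in these libraries, and the labels do not say whether replicates came from separate cultures, so the p-values measure the spread between these libraries.

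A miRNA hairpin is cut into a 5p and a 3p arm, and the arm loaded into an Argonaute protein pairs with target mRNAs mainly through its seed, bases 2 to 8. The 5p arms of the family share 1 seed and therefore much of their predicted target set, which includes regulators of the epithelial state such as SNAI1, a repressor of epithelial genes. The 3p arms carry other seeds. miR-30e-5p also served as the qRT-PCR reference in the study of these cells.

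The mature sequences of 7 members were read from RefSeq (GRCh38.p14) and are shown because the miR-30a and miR-30e arms differ by very few bases, which bears on how reads are assigned to them. They are written 5′ to 3′ with the seed in capitals. The first 3 carry the family seed of the 5p arms, the next 2 the seed of the miR-30a and miR-30e 3p arms, and the last 2 the seed of the miR-30c 3p arms.
hsa-miR-30a-5p: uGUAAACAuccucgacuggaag
hsa-miR-30e-5p: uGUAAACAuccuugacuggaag
hsa-miR-30c-5p: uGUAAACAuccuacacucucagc
hsa-miR-30a-3p: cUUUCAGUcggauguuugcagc
hsa-miR-30e-3p: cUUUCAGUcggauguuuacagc
hsa-miR-30c-1-3p: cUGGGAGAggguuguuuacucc
hsa-miR-30c-2-3p: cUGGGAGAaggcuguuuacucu
Counted from the 5′ end, with the miR-30e base first, the 5p arms of miR-30e and miR-30a differ at 1 position (U13C) and their 3p arms at 1 position (A18G). The 3p arms of the 2 miR-30c hairpins differ at 3 of 22 positions. miR-30c-5p is identical from both miR-30c hairpins and cannot be assigned to one of them. Some of its deposited values end in 0.5 of a count. A read with an error at the differing base could be counted under the wrong arm of miR-30a or miR-30e, so the split between those arms is uncertain to that extent.

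On chromosome 6, MIR30A (chr6:71403551-71403621) lies in an intron and MIR30C2 (chr6:71376960-71377031) overlaps an exon of LINC00472, a long non-coding RNA, all on the minus strand, with 26519 bases between the hairpins. On chromosome 1, MIR30E (chr1:40754355-40754446) and MIR30C1 (chr1:40757284-40757372) lie 2837 bases apart on the plus strand, both within an intron of NFYC, which encodes a subunit of the transcription factor NF-Y. The MIR30B and MIR30D hairpins lie on chromosome 8 with 4268 bases between them.

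The total count per library ran from 3797175 to 8283549 in adherent culture and from 959141 to 3580931 in spheroid culture. A count of 0 allows up to 3 counts, worth 0.495 to 0.800 CPM (depth-scaled counts, with TMM-adjusted library sizes) in adherent and 0.860 to 2.29 CPM in spheroid libraries, which covers counting error only. Spheroid shNeg replicate 1 stood apart, where 432 miRNAs had a count while its 3 fellow libraries had 813 to 885. Several results that moved without it are given both ways, and other results that use it may also move. Of the markers checked, epithelial miR-200c-3p had 1640 to 15700 CPM over the 24 libraries, while the other 4 epithelial markers reached at most 286 CPM and miR-429 had no count in 7 libraries. The summed level of the 5 blood cell markers stayed between 7.44 and 50.9 CPM. The endothelial marker miR-126-3p (538 to 8830 CPM) and the liver marker miR-122-5p (13700 to 29400 CPM) were present in every library of this epithelial line. The summed epithelial markers moved with the groups, at 3290 to 3420, 1970 to 2810 and 7080 to 9010 CPM in adherent shNeg, shRELA and shRELB cells and 1680 to 2440, 3480 to 6850 and 7340 to 15900 CPM in the spheroids. The 2 endothelial markers together had 6480 to 7630, 3990 to 9280 and 2160 to 2480 CPM in the adherent groups and 570 to 1730 CPM over the spheroid libraries. The summed level of the 6 stroma and muscle markers was lower with shRELA, at 228 to 258, 23.2 to 48.6 and 177 to 199 CPM in the adherent shNeg, shRELA and shRELB groups and 64.5 to 73.7, 24.7 to 28.1 and 87.0 to 133 CPM in the spheroid groups. In adherent shNeg most of this sum was miR-143-3p (mean 156 CPM) and miR-145-5p (90.0 CPM), while miR-199a-5p, miR-214-3p, miR-1-3p and miR-133a-3p had 0.0897 to 0.803 CPM. Of the 5 tested members, miR-143-3p fell with RELA knockdown in both cultures (log2 fold change -2.58 and -2.48) and miR-145-5p in adherent cells (-3.01). In adherent and spheroid cells, miR-199a-5p (0.71 and -0.35), miR-214-3p (0.03 and 0.01) and miR-133a-3p (-1.29 and -0.78) were not called. In the same shRELA libraries the chromosome 6 arms of miR-30 rose. The part of these shifts in the miR-30 values was not tested.

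All 10 arms were among the 905 miRNAs tested. miR-30d-5p was the most abundant, 27th of all miRNAs by its mean over the 24 libraries (7035 CPM). It was followed by miR-30e-5p (900 CPM), miR-30c-5p (821 CPM) and miR-30a-5p (731 CPM), whose ranks of 78, 82 and 86 lie close together. The 3p arms were scarcer, from miR-30e-3p at 156 CPM to miR-30d-3p at 4.01 CPM, and miR-30b-5p had 71.1 CPM. The mature arms printed above are 22 or 23 bases long, so length has little part in comparing them, but adapter ligation can favor some miRNAs over others.

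**Figure D1:**
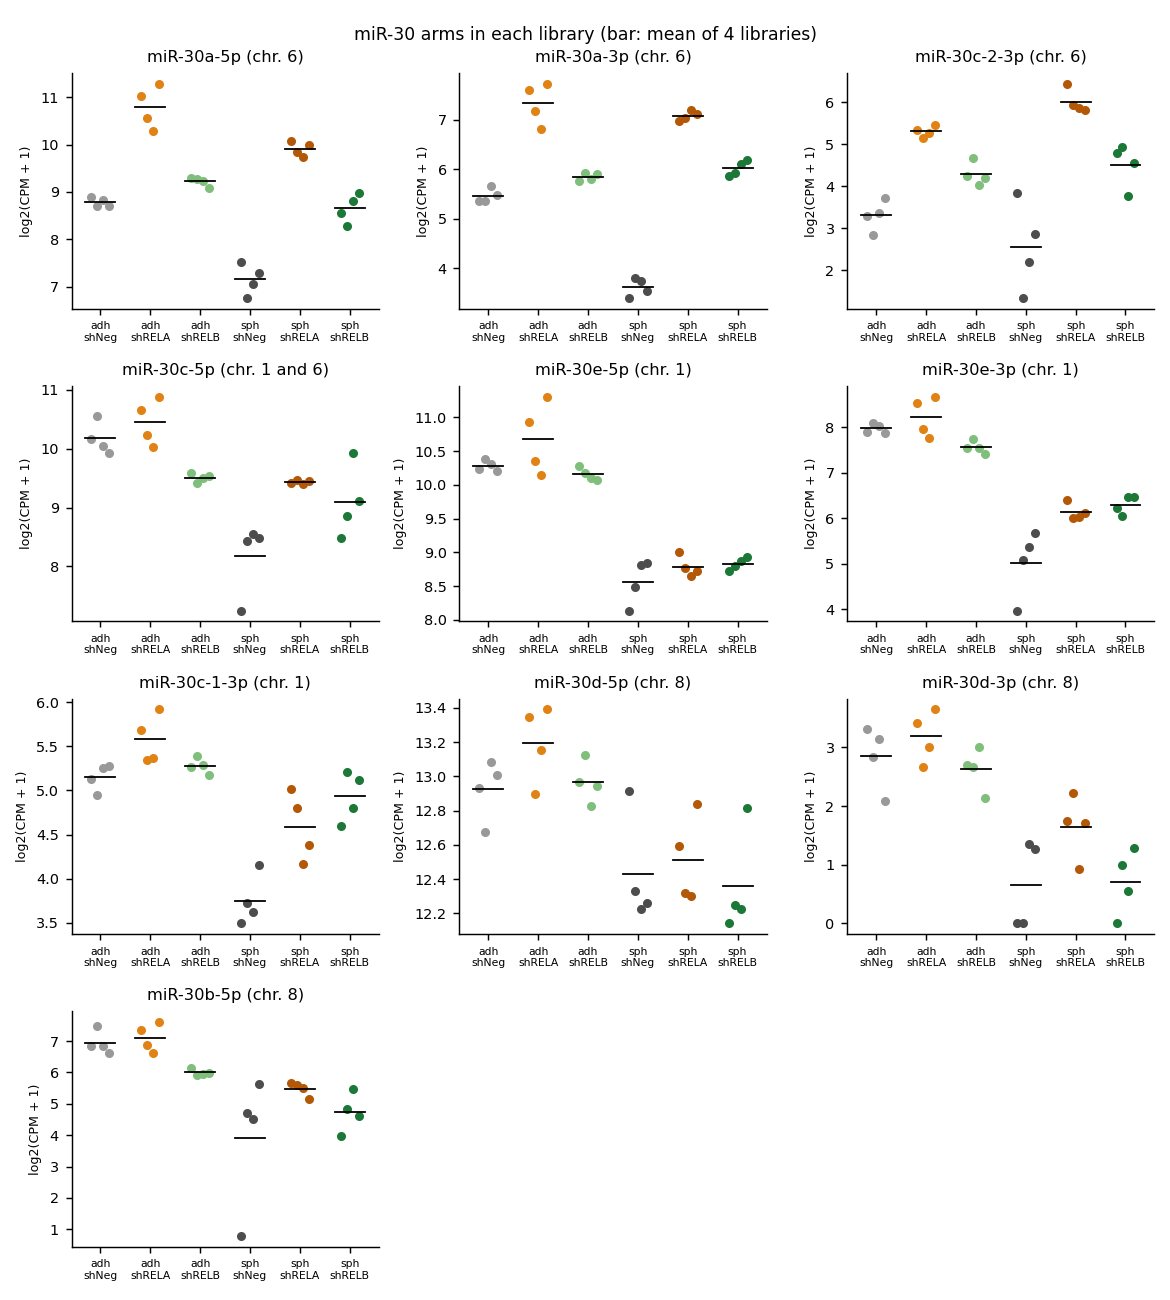
Level of each of the 10 miR-30 arms in each of the 24 libraries, on a log2(CPM + 1) axis whose range differs between panels. Points are libraries, black bars the mean of 4, adh is adherent and sph is spheroid, and the title gives the chromosome of the hairpin. In the 3 chromosome 6 panels, all shRELA libraries lie above the shNeg libraries of their culture, and miR-30d-5p overlaps between shNeg and both knockdowns.

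The first comparison asked how the arms differed between RELA or RELB knockdown and the shNeg cells of the same culture. In adherent cells, RELA knockdown raised 3 of the 10 arms, miR-30a-5p, miR-30a-3p and miR-30c-2-3p, which are the 3 arms made only by the chromosome 6 hairpins. None fell. Among all miRNAs tested, 1.1% were called higher and 2.65% lower (3.76% in either direction) in edgeR's quasi-likelihood test at an FDR below 0.01 and a fold change above 2. The shRELA and shNeg libraries did not overlap for 4 arms, all higher with shRELA, as was so upward for 9.83% and downward for 10.8% of all miRNAs. The median log2 fold change was 0.41 over the 10 arms and 0.09 over all miRNAs.

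miR-30a-5p, the most abundant product of the chromosome 6 pair, had 474, 417, 453 and 416 CPM in the 4 adherent shNeg libraries. It had 2082, 1509, 1243 and 2484 CPM with shRELA and 628, 620, 601 and 540 CPM with shRELB. The 3 groups did not overlap, with shRELA far above the others. The log2 fold change was 2.06 ± 0.20 (standard error, FDR 1.88e-09 in edgeR) with RELA knockdown and 0.44 ± 0.20 (FDR 0.148) with RELB knockdown. As these are bulk libraries, a changed share of cells of a type and a changed amount of RNA per cell cannot be told apart.

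miR-30a-3p, the other arm of the same hairpin, followed the same order at a lower level. The adherent shNeg libraries had 39.8, 40.0, 49.3 and 43.3 CPM. The shRELA libraries had 194, 144, 112 and 211 CPM and the shRELB libraries 53.5, 59.4, 54.6 and 59.0 CPM. Again no value of 1 group lay within another. Its log2 fold change was 1.94 ± 0.21 (edgeR FDR 1.05e-08) with RELA knockdown and 0.39 ± 0.20 (FDR 0.230) with RELB knockdown.

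miR-30c-2-3p, the arm that tells the chromosome 6 miR-30c hairpin from its chromosome 1 copy, was a low-count arm with 23 to 71 counts in the adherent shNeg libraries. It had 8.79, 6.13, 9.33 and 12.2 CPM with shNeg. With shRELA it had 39.3, 34.5, 37.7 and 43.0 CPM, and with shRELB 17.9, 24.6, 15.4 and 17.3 CPM, so the 3 groups were again separate. The log2 fold change was 2.07 ± 0.33 (edgeR FDR 1.69e-05) with RELA knockdown. With RELB knockdown it was 1.03 ± 0.33 (FDR 0.0314), short of the FDR threshold, and it was called by DESeq2 (FDR 0.00128) and without spheroid shNeg replicate 1 in the shared estimate of spread (FDR 0.00209).

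The chromosome 1 arms did not pass the test in adherent cells. miR-30e-5p had 1204, 1332, 1271 and 1179 CPM with shNeg, 1943, 1305, 1130 and 2535 CPM with shRELA and 1243, 1153, 1102 and 1075 CPM with shRELB. The shRELA libraries fell into 2 high and 2 low values, replicates 1 and 4 above all controls and replicates 2 and 3 at or below the highest control. Replicates 1 and 4 were also the higher of these 4 libraries for miR-30a-5p, miR-30a-3p, miR-30b-5p, miR-30c-5p, miR-30c-2-3p and miR-30d-5p. They had the lowest TMM factors of the group, 0.8117 and 0.7296, against 0.9235 and 0.994 for replicates 2 and 3. The part of scaling in this pattern was not tested. The log2 fold changes of miR-30e-5p were 0.47 ± 0.20 (edgeR FDR 0.166) and -0.12 ± 0.20 (FDR 0.763). miR-30e-3p, with 235 to 270 CPM in shNeg, had 218 to 408 CPM with shRELA and 169 to 214 CPM with shRELB, whose libraries all lay below the controls (log2 fold change -0.42 ± 0.23, FDR 0.278). miR-30c-1-3p had 29.9 to 37.8 CPM in shNeg and 39.7 to 59.6 CPM with shRELA, every library above the controls, at a log2 fold change of 0.45 ± 0.24 (FDR 0.324).

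miR-30c-5p, which both miR-30c hairpins can yield, had 1152, 1501, 1057 and 978 CPM in adherent shNeg libraries. With shRELA it had 1608, 1203, 1046 and 1893 CPM, overlapping the controls, and with shRELB 767, 683, 725 and 738 CPM, all below them. Neither difference was called (log2 fold change 0.29 ± 0.25, edgeR FDR 0.585, and -0.69 ± 0.25, FDR 0.0642).

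Of the chromosome 8 arms, miR-30d-5p varied least. The adherent shNeg libraries had 7817, 6548, 8673 and 8233 CPM, those with shRELA 10400, 7615, 9102 and 10750 CPM, and those with shRELB 8021, 8946, 7278 and 7878 CPM. All 3 groups overlapped, and the log2 fold changes were 0.28 ± 0.18 (edgeR FDR 0.462) and 0.04 ± 0.18 (FDR 0.937). miR-30b-5p had 96.3 to 177 CPM with shNeg, 96.8 to 194 CPM with shRELA and 60.1 to 69.6 CPM with shRELB. Its shRELB libraries lay below every control, at a log2 fold change of -0.98 ± 0.38 (FDR 0.0857), which was called when only the groups compared were fitted (-1.07, FDR 1.8e-05). miR-30d-3p, with 3.27 to 8.95 CPM in shNeg, overlapped in both comparisons.

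With RELB knockdown in adherent cells, 0 of the 10 arms were called in edgeR against 7.07% of all miRNAs (3.54% higher and 3.54% lower). At an unadjusted p below 0.05 there were 4, DESeq2 called 1 and limma 0. The median log2 fold change was -0.04 over the arms and 0.04 over all miRNAs. The 4 shRELB libraries lay wholly above the 4 controls for 3 arms, those of chromosome 6, and wholly below for 3, miR-30b-5p, miR-30c-5p and miR-30e-3p. Such separation was seen upward for 17.2% and downward for 15.9% of all miRNAs.

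In spheroids, 5 of the 10 arms rose with RELA knockdown and 5 with RELB knockdown, and none fell. The 3 chromosome 6 arms were among them in both. With RELA knockdown 7.51% of all miRNAs were called higher and 7.62% lower (15.1% in either direction). With RELB knockdown 7.29% were called higher and 6.08% lower (13.4% in either direction). The arms whose libraries all lay above the controls numbered 6 with RELA and 4 with RELB knockdown and none lay wholly below. Over all miRNAs, 13.4% and 11.9% lay wholly above and 9.17% and 5.41% wholly below. The median log2 fold change of the arms was 1.09 with RELA and 1.06 with RELB knockdown, against 0.09 and 0.16 over all miRNAs. Both knockdowns share the 4 spheroid shNeg libraries, so a deviation in those moves both. Those 4 were also shallower than every knockdown library. In all comparisons of a knockdown with shNeg in spheroids, ratios included, knockdown and depth thus cannot be told apart. Scaled by library totals instead of TMM, the 3 chromosome 6 arms alone were called in each, and the calls over all miRNAs split 26 higher to 110 lower with RELA knockdown, against 68 to 69 with TMM, and 42 to 81 with RELB knockdown, against 66 to 55.

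miR-30a-5p had 182, 108, 132 and 154 CPM in the spheroid shNeg libraries. It had 1070, 918, 849 and 1020 CPM with shRELA and 376, 310, 448 and 500 CPM with shRELB. Each group was separate from the others, with shRELB between shNeg and shRELA. The log2 fold change was 2.74 ± 0.21 (edgeR FDR 2.51e-12) with RELA and 1.504 ± 0.20 (FDR 5.70e-07) with RELB knockdown. Without spheroid shNeg replicate 1 the values were 2.87 and 1.63.

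miR-30a-3p had larger fitted changes here than the 5p arm of its hairpin. It had 9.54, 13.0, 12.3 and 10.5 CPM with shNeg, from 13 to 24 counts a library. With shRELA it had 126, 130, 145 and 137 CPM and with shRELB 57.5, 59.9, 68.4 and 72.3 CPM. The groups were again separate and in the same order. The log2 fold change was 3.56 ± 0.24 (edgeR FDR 1.32e-13) with RELA and 2.50 ± 0.24 (FDR 4.98e-10) with RELB knockdown, and 3.49 and 2.43 without spheroid shNeg replicate 1.

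miR-30c-2-3p had 13.2, 1.53, 3.59 and 6.32 CPM in spheroid shNeg, from 18, 2, 7 and 9 counts, so its control level is poorly set and its highest value came from replicate 1. With shRELA it had 85.8, 60.4, 57.3 and 55.5 CPM, all above the controls. With shRELB it had 26.9, 29.6, 12.6 and 22.4 CPM, and the value of replicate 3 lay within the control range. The log2 fold change was 3.41 ± 0.38 (edgeR FDR 2.33e-08) with RELA and 1.91 ± 0.39 (FDR 2.75e-04) with RELB knockdown, and 4.06 and 2.57 without spheroid shNeg replicate 1. With only the groups compared in the fit, the RELB difference was 1.79 with an FDR of 0.0738.

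In the chromosome 1 pair the 3p arms had larger fitted differences in spheroids than miR-30e-5p. miR-30e-5p had 281, 357, 447 and 460 CPM with shNeg, 511, 434, 402 and 422 CPM with shRELA and 424, 445, 466 and 490 CPM with shRELB, which overlapped throughout. The log2 fold changes were 0.20 ± 0.20 (edgeR FDR 0.486) and 0.24 ± 0.20 (FDR 0.383), and both turned negative with library totals (-0.21 and -0.04).

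Its partner arm miR-30e-3p had 14.7, 32.8, 40.0 and 49.8 CPM with shNeg, 83.4, 63.0, 64.5 and 68.8 CPM with shRELA and 74.3, 64.8, 87.0 and 87.2 CPM with shRELB. Both knockdown groups lay above every control. Both differences passed just beyond 2-fold, at log2 fold changes of 1.02 ± 0.25 (edgeR FDR 0.00238) and 1.182 ± 0.25 (FDR 5.72e-04). Without spheroid shNeg replicate 1, the lowest library, they were 0.77 (FDR 0.00531) and 0.94 (FDR 6.81e-04) and neither was called. The RELA call also ended with median-ratio size factors (0.86), DESeq2 (0.86), library totals (0.60), a filter at a mean of 10 CPM (0.81), only the groups compared (1.07, FDR 0.0447), and without shNeg replicate 2 (0.99) or shRELA replicate 1 (0.89). The RELB call also ended with library totals (0.89) and with only the groups compared (1.01, FDR 0.117).

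miR-30c-1-3p had 10.3, 12.2, 11.3 and 16.9 CPM with shNeg, 31.4, 26.8, 17.0 and 19.8 CPM with shRELA and 23.2, 35.9, 27.0 and 33.8 CPM with shRELB. All knockdown libraries exceeded the controls. The difference was called with RELB knockdown (1.25 ± 0.27, edgeR FDR 6.55e-04) and not with RELA knockdown (0.90 ± 0.28, FDR 0.0128). With library totals in place of TMM the RELB value was 0.98 and was not called.

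miR-30c-5p had 151, 344, 375 and 359 CPM in spheroid shNeg, the low value being replicate 1. It had 681, 711, 675 and 703 CPM with shRELA, well above all controls and close to each other. With shRELB it had 356, 460, 972 and 554 CPM, from within the control range to far above it. The log2 fold change was 1.17 ± 0.25 (edgeR FDR 5.86e-04) with RELA knockdown, and 0.95 and no longer called without spheroid shNeg replicate 1. The RELA call also ended with library totals in place of TMM. With RELB knockdown the log2 fold change was 0.93 ± 0.25 (FDR 0.00575), which passed the FDR and not the fold threshold.

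The chromosome 8 arms among the 10 members did not pass the test in spheroids. miR-30d-5p had 7721, 5143, 4779 and 4900 CPM with shNeg, 6181, 5110, 5053 and 7327 CPM with shRELA and 4521, 4867, 4794 and 7198 CPM with shRELB. One library of each of the shNeg and shRELB groups stood well above its other 3, and the groups overlapped. Its log2 fold changes were 0.07 ± 0.18 (edgeR FDR 0.806) and -0.08 ± 0.18 (FDR 0.794), and the sign of each turned under some of the alternatives. miR-30b-5p had 0.734, 25.2, 22.1 and 48.4 CPM with shNeg, a single count in replicate 1, and 35.0 to 49.7 CPM with shRELA and 14.8 to 43.7 CPM with shRELB. Its differences were 0.87 ± 0.42 (FDR 0.119) and 0.18 ± 0.42 (FDR 0.790), and 0.47 and -0.21 without replicate 1. For miR-30d-3p no spheroid shNeg library exceeded 3 counts and those with shRELA held 2 to 7, too few for a comparison at this depth. The 3p arm of miR-30b, miR-30b-3p, is in the table but was not among the 10 members and is named here after its values were seen. It had 0, 4.58, 8.72 and 7.02 CPM in spheroid shNeg, 10.7 to 14.99 CPM with shRELA and 9.64 to 12.6 CPM with shRELB, on 0 to 44 counts a library. Every spheroid library of either knockdown thus lay above every control for this arm.

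**Figure D2:**
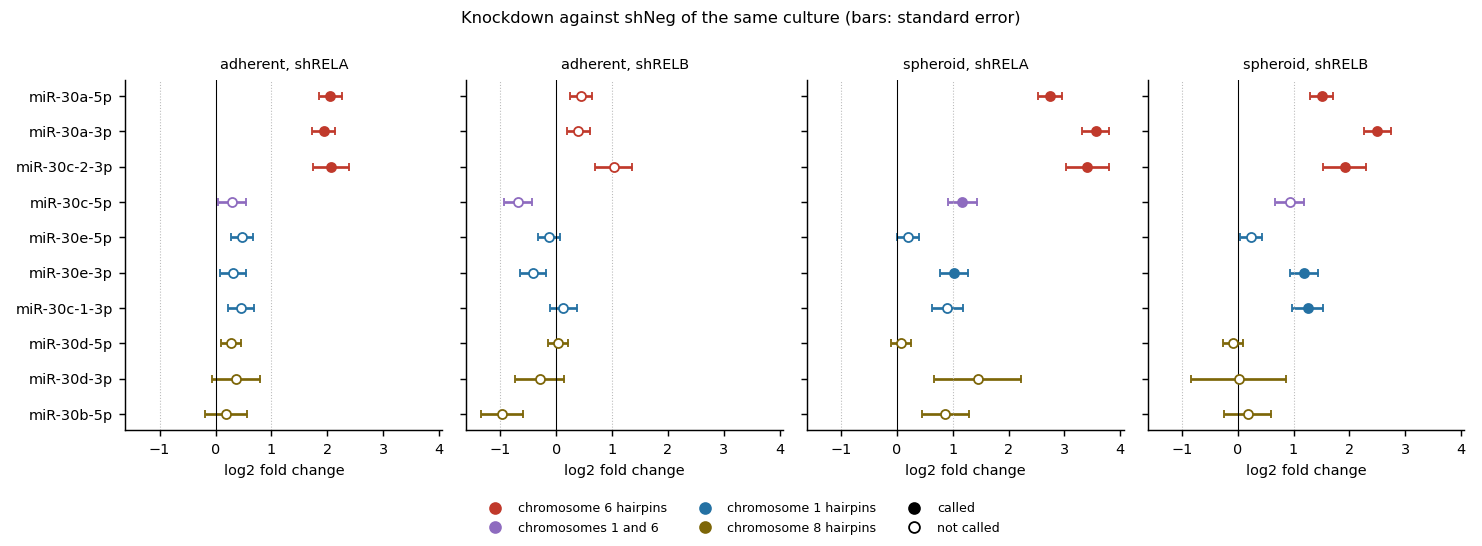
Fitted log2 fold change of each miR-30 arm (rows) in the 4 knockdown comparisons (panels, 1 common x axis), with standard errors as bars and dotted lines at a 2-fold change. Colors give the hairpin cluster and filled points the arms called in edgeR. The red chromosome 6 arms are called in 3 panels, from 1.94 to 2.07 in adherent shRELA, from 2.74 to 3.56 in spheroid shRELA and from 1.504 to 2.50 in spheroid shRELB.

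The clusters were also compared without any scaling between libraries, by the log2 ratio of 2 arms within each library (0.5 counts added to each). A ratio compares arms within 1 library and does not show which of the arms changed. There were 8 ratios in 9 comparisons, and 38 of the 72 did not overlap between groups of 4, each with a 2-sided exact permutation p of 0.0286, the smallest that 4 against 4 allows. Adjusted over the 72 by Benjamini-Hochberg, that p became 0.0541, so no ratio passed 0.05. Many ratios of unrelated miRNAs separate too: of all 55945 pairs of miRNAs averaging 10 CPM or more, 39.6% did not overlap between adherent shRELA and shNeg, 56.5% between adherent shRELB and shNeg, and 43.4% and 34.5% in the same comparisons of spheroids. Between spheroid and adherent culture it was 69.5%, 70.4% and 64.2% with shNeg, shRELA and shRELB, and between shRELA and shRELB 55.5% in adherent cells and 39.6% in spheroids.

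miR-30a-5p to miR-30d-5p, chromosome 6 against chromosome 8, had a mean log2 ratio of -4.15 ± 0.16 (SD, n = 4) in adherent shNeg, -2.41 ± 0.32 in adherent shRELA and -3.75 ± 0.13 in adherent shRELB. For spheroids it was -5.28 ± 0.26, -2.61 ± 0.16 and -3.71 ± 0.25. All 4 knockdown groups were separate from their controls, by 1.74 and 0.40 in adherent cells and by 2.68 and 1.58 in spheroids (exact permutation p 0.0286 each). The shRELA groups of the 2 cultures overlapped each other, as did the shRELB groups, while the shNeg groups did not.

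The miR-30a-5p to miR-30e-5p ratio sets 2 arms side by side that differ at 1 base. In adherent libraries it was -1.5 ± 0.14 with shNeg, 0.10 ± 0.10 for shRELA and -0.94 ± 0.06 for shRELB. The spheroid means were -1.42 ± 0.54, 1.12 ± 0.10 and -0.18 ± 0.24, where the wide SD of shNeg comes from replicate 1 at -0.63 against -1.75 to -1.57 in the other 3. miR-30a-5p was thus the scarcer of the pair in every shNeg library and the more abundant in every spheroid shRELA library. Each knockdown group was separate from its controls (exact permutation p 0.0286 each).

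The 2 miR-30c hairpins were compared by their 3p arms, miR-30c-2-3p of chromosome 6 over miR-30c-1-3p of chromosome 1. The mean log2 ratio was -1.95 ± 0.26 in adherent shNeg, -0.28 ± 0.17 for shRELA and -1.03 ± 0.23 for shRELB. The spheroid means were -1.33 ± 1.27, 1.46 ± 0.24 and -0.44 ± 0.55. The shRELA libraries lay above shNeg in both cultures and the shRELB libraries in adherent culture. In spheroids the shRELB and shNeg libraries overlapped (difference 0.89, exact permutation p 0.257) through shNeg replicate 1 at 0.35, and without it they were separate (difference 1.45). By contrast, the miR-30d-5p to miR-30e-5p ratio, chromosome 8 against chromosome 1, overlapped between each knockdown and its controls, with differences from -0.34 to 0.17. Within the chromosome 8 pair, the miR-30b-5p to miR-30d-5p ratio was separate and lower in adherent shRELB (-0.985, exact permutation p 0.0286). It overlapped the controls in adherent shRELA (-0.10), spheroid shRELA (1.65) and spheroid shRELB (1.03).

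The arms of a hairpin did not always move together. miR-30e-5p exceeded miR-30e-3p by a log2 ratio of 2.31 ± 0.02 in adherent shNeg, 2.45 ± 0.12 with shRELA and 2.61 ± 0.14 with shRELB. In spheroids the ratio was 3.58 ± 0.45 with shNeg and came down to 2.66 ± 0.08 and 2.55 ± 0.16 with the knockdowns. All 4 knockdown differences were separate, upward in adherent cells (0.14 and 0.29) and downward in spheroids (-0.92 and -1.03, exact permutation p 0.0286 each). With 1 library left out, the spheroid differences ran from -1.05 to -0.705 with RELA and from -1.16 to -0.817 with RELB knockdown. The 5p to 3p ratio of miR-30a was 3.35 ± 0.17, 3.46 ± 0.07 and 3.39 ± 0.15 in the adherent groups, which overlapped. In spheroids it was 3.61 ± 0.52, 2.84 ± 0.22 and 2.64 ± 0.19, separate from shNeg with shRELB and overlapping it with shRELA. Of the 214 hairpins with both arms tested, the 5p to 3p ratio did not overlap for 4.21% and 17.8% in the adherent RELA and RELB comparisons and for 18.2% and 12.6% in the spheroid ones. It was 40.2%, 43.9% and 39.7% between the cultures with shNeg, shRELA and shRELB, and 14.5% and 8.41% between shRELA and shRELB in adherent cells and spheroids.

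**Figure D3:**
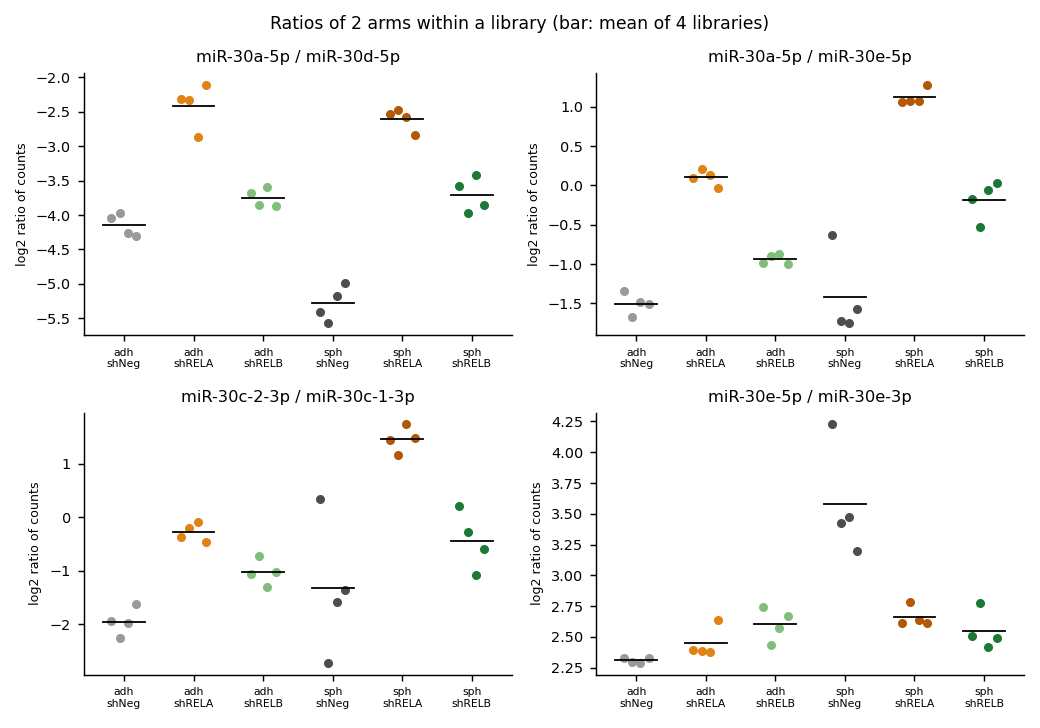
Log2 ratio of the counts of 2 arms in each of the 24 libraries for 4 of the 8 ratios. Points are libraries, black bars the mean of 4, and the y range differs between panels. Spheroid shNeg replicate 1, the first of the dark gray points, lies at -0.63 for miR-30a-5p / miR-30e-5p, 0.35 for miR-30c-2-3p / miR-30c-1-3p and 4.23 for miR-30e-5p / miR-30e-3p, above the other 3 libraries of its group in each.

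RELA and RELB knockdown were compared directly within each culture. In adherent cells, miR-30a-5p (1.62 ± 0.20, edgeR FDR 1.42e-07) and miR-30a-3p (1.54 ± 0.20, FDR 4.52e-07) were higher with shRELA than with shRELB, which made 2 arms called higher of 10 and none lower, against 4.31% and 6.63% of all miRNAs (10.9% in either direction). The shRELA libraries lay wholly above those with shRELB for 6 arms and wholly below for none, against 14.8% and 16.5% of all miRNAs. miR-30c-2-3p missed the FDR threshold (1.04 ± 0.31, FDR 0.0141) and miR-30c-5p the fold threshold (0.98 ± 0.25, FDR 0.00401). In spheroids, all 3 chromosome 6 arms were higher with shRELA, 3 of 10 with none lower against 2.76% of all miRNAs higher and 3.87% lower (6.63% in either direction), at 1.24 ± 0.20 for miR-30a-5p (FDR 1.87e-05), 1.06 ± 0.21 for miR-30a-3p (FDR 2.76e-04) and 1.496 ± 0.32 for miR-30c-2-3p (FDR 9.77e-04). These 3 were also the arms whose libraries did not overlap, upward in each, against 10.1% of all miRNAs upward and 10.4% downward. Without spheroid shRELB replicate 3, 1 of the 3 was called, as miR-30a-3p came to 0.97 (FDR 0.00247) and miR-30c-2-3p to 1.176 (FDR 0.011).

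Whether a knockdown's effect differed between the cultures was tested as the interaction of knockdown and culture. Of the 10 arms, 1 was called with RELA knockdown and 4 with RELB knockdown, each with the larger log2 fold change in spheroids, where 4.31% and 4.64% of all miRNAs were called in that direction, 3.31% and 3.87% in the other, and 7.62% and 8.51% in either. With RELA knockdown, miR-30a-3p changed by 1.62 ± 0.31 more in spheroids (edgeR FDR 4.14e-04). With RELB knockdown the difference was 2.11 ± 0.31 for miR-30a-3p (FDR 1.62e-05), 1.06 ± 0.28 for miR-30a-5p (FDR 0.00716), 1.62 ± 0.35 for miR-30c-5p (FDR 0.00147) and 1.60 ± 0.34 for miR-30e-3p (FDR 0.00118). The miR-30a-5p difference was not called without adherent shNeg replicate 1, 3 or 4, without any 1 of the 4 adherent shRELB libraries, or with median-ratio size factors (0.93), DESeq2 (0.93) or a filter at a mean of 10 CPM (0.77). With library totals miR-30a-3p alone was called with RELB knockdown. Without spheroid shNeg replicate 1, miR-30c-2-3p was called as well with RELA knockdown (2.002, FDR 0.00117). Without that library the RELB values of miR-30c-5p and miR-30e-3p were 1.39 and 1.36 and stayed called. For miR-30c-5p and miR-30e-3p the fitted RELB difference was below 0 in adherent cells and above 0 in spheroids. The miR-30a-5p interaction with RELA knockdown was 0.69 ± 0.28 (FDR 0.0981), and those of miR-30d-5p were -0.21 ± 0.25 and -0.11 ± 0.25.

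The second comparison set spheroid against adherent culture for each shRNA. In shNeg cells, 8 of the 10 arms fell in spheroids and none rose, where 20.9% of all miRNAs were called lower and 21.3% higher (42.2% in either direction). With shRELA 6 fell and none rose, against 15.8% of all miRNAs lower and 16.8% higher (32.6%), and 3 fell without adherent shRELA replicate 4. With shRELB 3 fell and none rose, against 11.4% lower and 13.6% higher (25.0%). The spheroid libraries lay wholly below the adherent ones for 8, 8 and 6 arms with shNeg, shRELA and shRELB, against 30.6%, 25.0% and 22.3% of all miRNAs, and wholly above for 0, 1 and 0, against 16.9%, 21.3% and 19.2%. The 1 arm above was miR-30c-2-3p. The median log2 fold change of the arms was -1.81 with shNeg, -1.03 with shRELA and -0.57 with shRELB, against -0.26, 0.07 and -0.00281 over all miRNAs. Spheroid libraries were also the shallower ones, and culture and depth cannot be told apart here.

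All 3 arms made only by chromosome 1 fell in shNeg spheroids. miR-30e-3p fell by 2.86 on the log2 scale (standard error 0.26, edgeR FDR 2.88e-11) from a mean of 251 to 34.3 CPM, fell by 2.15 with shRELA and fell by 1.26 with shRELB. Without spheroid shNeg replicate 1 its shNeg difference was -2.61. miR-30e-5p, the reference arm, fell by 1.69 (standard error 0.20, FDR 1.06e-08) from 1246 to 386 CPM, fell by 1.97 with shRELA and fell by 1.32 with shRELB, without overlap in each. miR-30c-1-3p fell by 1.46 with shNeg and fell by 1.0045 with shRELA, at the fold threshold, and its difference was -0.33 with shRELB (FDR 0.279).

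The chromosome 6 arms split by arm and by shRNA. miR-30a-5p fell by 1.61 (standard error 0.20, edgeR FDR 3.18e-08) in shNeg spheroids, while its differences were -0.92 ± 0.20 with shRELA and -0.55 ± 0.20 with shRELB. miR-30a-3p fell by 1.92 with shNeg, and its differences with shRELA (-0.30 ± 0.20, FDR 0.225) and shRELB (0.19 ± 0.20, FDR 0.473) were not called. miR-30c-2-3p was not called in any of the 3, at -0.60 ± 0.39, 0.74 ± 0.31 and 0.29 ± 0.32. Without spheroid shNeg replicate 1 its shNeg difference was -1.26 and was called (FDR 0.00682). miR-30c-5p fell by 1.93 with shNeg and fell by 1.05 with shRELA, and had a difference of -0.31 ± 0.25 with shRELB. Its shNeg difference was -1.70 without spheroid shNeg replicate 1.

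Among the chromosome 8 arms, miR-30d-5p was lower in spheroids by less than 2-fold and was not called, at -0.47 ± 0.18 (edgeR FDR 0.0243) with shNeg, -0.68 ± 0.18 (FDR 0.00232) with shRELA and -0.59 ± 0.18 (FDR 0.00877) with shRELB. Its spheroid and adherent libraries overlapped with shNeg and were separate with shRELA and shRELB. miR-30b-5p fell by 2.37 (standard error 0.42, FDR 1.04e-05) with shNeg and fell by 1.70 with shRELA, and its shRELB difference was -1.21 ± 0.39 (FDR 0.0135). Without spheroid shNeg replicate 1 its shNeg difference was -1.98 and stayed called. miR-30d-3p was called lower in all 3. As no spheroid shNeg library had more than 3 counts of it, that difference is a limit, at least 3.23-fold lower at 3 counts per library.

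**Figure D4:**
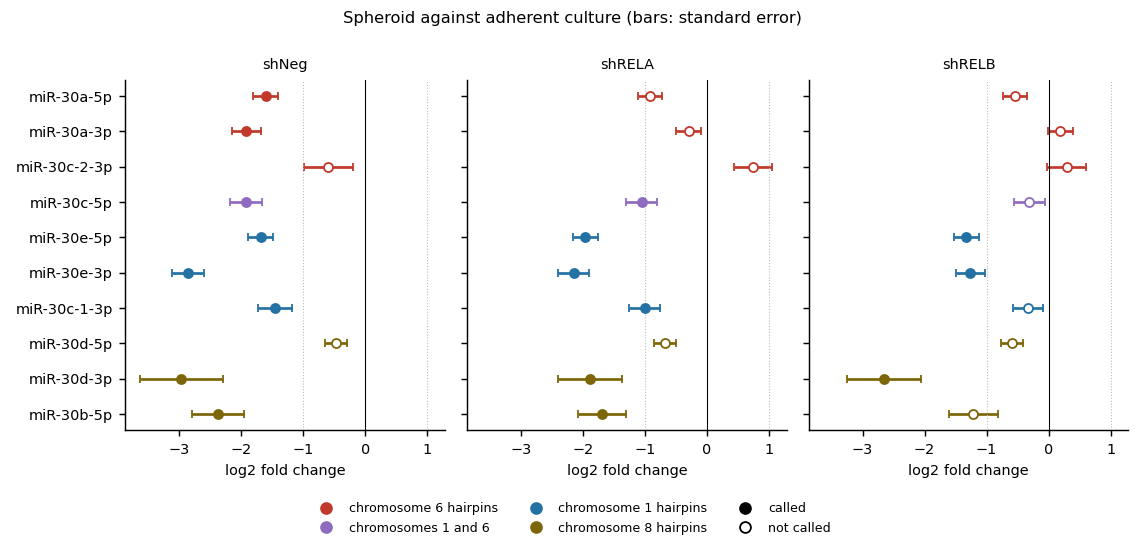
Fitted log2 fold change of each miR-30 arm (rows) in spheroid against adherent culture for the 3 shRNAs (panels, 1 common x axis), with standard errors as bars and dotted lines at a 2-fold change. Colors give the hairpin cluster and filled points the arms called in edgeR. With shNeg 8 arms are called lower, with shRELA 6 and with shRELB 3, and miR-30d-5p is an open point in each panel.

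Summed over the 10 arms, the family had 11150 ± 657 CPM (SD, n = 4) in adherent shNeg, 15170 ± 3040 with shRELA and 10870 ± 737 with shRELB, and 6563 ± 1220, 8356 ± 1170 and 7019 ± 1380 CPM in the spheroids. The chromosome 8 arms made up most of it, 71.2% ± 4.15 of the family's counts in adherent shNeg and 85.6% ± 4.56 in spheroid shNeg. The arms made only by chromosome 6 took 4.42% ± 0.23, 13.2% ± 1.76 and 6.20% ± 0.38 of the counts with adherent shNeg, shRELA and shRELB and 2.47% ± 0.34, 14% ± 1.1 and 7.11% ± 0.75 in spheroids. Their shRELA range in spheroids (12.4% to 14.8%) and in adherent cells (10.7% to 14.7%) overlapped, while both lay above every other group, whose highest library was at 7.84%. The arms made only by chromosome 1 took 12.6% to 13.8% in the adherent groups and 6.48% to 8.18% in the spheroid groups on average.

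**Figure D5:**
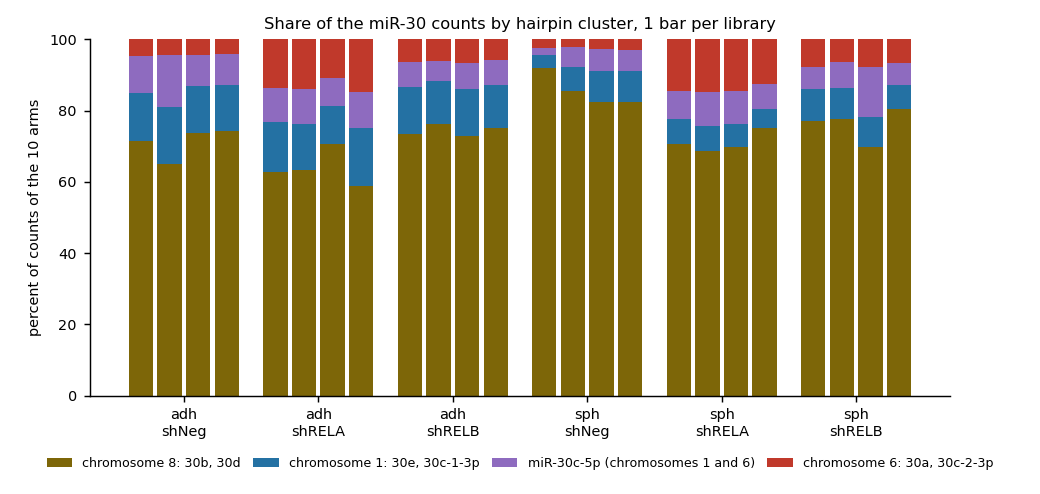
Share of the counts of the 10 miR-30 arms taken by each hairpin cluster, with 1 stacked bar per library and 4 libraries per group. miR-30c-5p is shown apart because both chromosomes 1 and 6 yield it. The red chromosome 6 share is 10.7% to 14.8% in the 8 shRELA libraries and at most 7.84% in the other 16.

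The likeness of the arms across the 24 libraries did not follow the clusters alone. As a description, with group differences, depth and scaling shared by all points, Pearson's r of log2 CPM was 0.954 between the arms of miR-30e and 0.944 between those of miR-30a, and 0.844 between miR-30a-3p and miR-30c-2-3p. Some arms of different clusters were as much alike, with 0.921 between miR-30b-5p and miR-30c-5p and 0.882 both between miR-30b-5p and miR-30e-3p and between miR-30d-3p and miR-30e-5p. Others were not, as miR-30c-2-3p and miR-30e-5p with 0.0969. It was 0.444 between the 3p arms of the 2 miR-30c hairpins and 0.415 between miR-30b-5p and miR-30d-5p, neighbors on chromosome 8. The other chromosome 8 values were 0.814 between miR-30b-5p and miR-30d-3p and 0.721 between the arms of miR-30d. On chromosome 1, miR-30c-1-3p had 0.895 with miR-30e-3p and 0.822 with miR-30e-5p. On chromosome 6, miR-30a-5p had 0.809 with miR-30c-2-3p. Of the other 326 miRNAs averaging 10 CPM or more, those most like miR-30a-5p were let-7f-5p (0.907) and miR-183-5p (0.881), those most like miR-30d-5p were miR-125a-5p (0.895) and miR-532-5p (0.887), and those most like miR-30e-5p were miR-106a-5p (0.972) and miR-21-5p (0.965).

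As miR-30e-5p served as a reference, its range was set beside 10 miRNAs often considered as qRT-PCR references. Its group means ran from 386 CPM in spheroid shNeg to 1728 CPM in adherent shRELA, a ratio of 4.48, which equals the median ratio of all miRNAs averaging 10 CPM or more. Within each culture its knockdown differences were not called, as given above. miR-30d-5p had the narrowest range in the family, with a ratio of 1.77, and miR-30a-5p and miR-30a-3p had ratios of 12.7 and 14.6. The candidates ran from 2.05 for miR-191-5p to 16.6 for miR-423-5p, with 2.75 for let-7a-5p and 2.69 for miR-93-5p, the 2 most abundant. Of the 10, 0 were called in either adherent knockdown comparison, 4 rose with RELA knockdown in spheroids (let-7a-5p at 1.46, miR-16-5p at 1.24, miR-26a-5p at 1.08 and miR-191-5p at 1.03) and 1 with RELB knockdown (miR-16-5p at 1.06). Of all miRNAs, 3.76% and 7.07% were called in adherent shRELA and shRELB, and 7.51% and 7.29% were called higher in the spheroid comparisons. In spheroids the median log2 fold change of these candidates was 0.81 with RELA and 0.28 with RELB knockdown, against 0.09 and 0.16 over all miRNAs.

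The miRNAs of the miR-200 family, miR-203a-3p and miR-205-5p are also known to act on regulators of the epithelial state, and 7 of them were set beside miR-30. In adherent cells miR-205-5p fell with RELA (-1.49) and RELB (-1.28) knockdown and miR-200c-3p rose with RELB knockdown (1.32), 0 and 1 of the 7 rising. Of all miRNAs, 1.1% and 3.54% were called higher and 2.65% and 3.54% lower there. In spheroids miR-200c-3p rose with RELA knockdown (1.45), and miR-200c-3p (2.53), miR-200b-3p (1.65) and miR-141-3p (1.61) rose and miR-205-5p fell (-1.99) with RELB knockdown. With RELA knockdown in spheroids miR-205-5p was lower too (-0.996, edgeR FDR 5.51e-05), just short of the fold threshold. In the spheroid RELA and RELB comparisons 7.51% and 7.29% of all miRNAs were called higher and 7.62% and 6.08% lower. The medians of the 7 were -1.35, 0.42, -0.26 and 1.61 in the adherent RELA and RELB and spheroid RELA and RELB comparisons, against 0.09, 0.04, 0.09 and 0.16 over all miRNAs. Both RELA medians are values of miR-200a-3p, which was not called and had group means of 3.04 to 10.5 CPM. miR-429 and miR-203a-3p were scarcer still, with group means of at most 1.51 and 4.78 CPM. The direct comparison of shRELA with shRELB put 4 of the 7 lower with shRELA in adherent cells and 2 in spheroids, none higher. Of all miRNAs, 6.63% and 3.87% were called lower and 4.31% and 2.76% higher.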

How the data were processed

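Total RNA of the 24 OV90 libraries was prepared with the QIAseq miRNA Library Kit and sequenced single-end on a NextSeq. As given in the study's methods, the authors trimmed reads with Cutadapt, quantified mature miRNAs with miRDeep2 on GRCh38 and used edgeR. The deposited table is titled CPM, but its values are estimated counts: they sum to a different total in each library, and 3.04% of the non-zero values, on 84 miRNAs, are not whole. Whether the authors collapsed the kit's molecular identifiers is not given in the sources used here, so intervals and floors cover counting error only.

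The estimated counts were rounded and tested with edgeR 4.0.16 (quasi-likelihood test, TMM) in R 4.3.3. All 6 groups were fitted together, with the 905 of 2656 miRNAs that had at least 1 CPM in 4 libraries, and the Benjamini-Hochberg FDR was taken over those 905. A miRNA was called at an FDR below 0.01 and a fold change above 2, the study's thresholds. There were 9 comparisons of groups and 2 interactions of knockdown and culture, and comparisons within a culture share its shNeg libraries. Within-library ratios took 0.5 added to each count and a 2-sided exact permutation test (scipy 1.17.1). The edgeR, DESeq2 1.42.0 and limma 3.58.1 steps were tested on simulated data. Between any 2 libraries of a group, chi-square per degree of freedom was 10.2 or more, above sampling noise. All 10 arms are named, as are the 2 miRNAs most correlated with 1 arm of each cluster and, from each list, the 2 most abundant and up to 5 called in a knockdown comparison. The members and lists were chosen with earlier results of these data known. Sequences and hairpin positions were taken from RefSeq (GRCh38.p14) and host genes from a GENCODE annotation of GRCh38. Alternatives were another scaling, filter, tool or threshold, a replicate block, fewer groups and each library left out.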

Additional observations from a re-analysis of the deposited data

Results flagged for a closer look

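Within groups of 4, the highest or lowest library was tested for its gap to the others with Dixon's criterion in 108 sets of values, 60 of arm levels and 48 of ratios. It stood apart in 10, where chance alone gives about 1 in 20, and 3 of the 10 came from spheroid shNeg replicate 1. That library had miR-30c-5p at 151 CPM, below its fellows, miR-30d-5p at 7721 CPM, above them, and a log2 ratio of miR-30a-5p to miR-30e-5p of -0.626, above them. In spheroid shRELA, replicate 1 had the high miR-30c-2-3p level of 85.8 CPM, replicate 2 a high log2 ratio of miR-30e-5p to miR-30e-3p (2.78), and replicate 4 high ratios of miR-30a-5p (1.27) and of miR-30d-5p (4.12) to miR-30e-5p. Spheroid shRELB replicate 4 was high in miR-30d-5p (7198 CPM) and in its log2 ratio to miR-30e-5p (3.88). Adherent shRELA replicate 4 had the high log2 ratio of miR-30e-5p to miR-30e-3p (2.63).

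The effect of a knockdown differed between the cultures, by edgeR's test of the interaction, for 4 arms. With RELB knockdown the log2 fold change was larger in spheroids by 2.11 for miR-30a-3p, 1.62 for miR-30c-5p, 1.6 for miR-30e-3p and 1.06 for miR-30a-5p. With RELA knockdown it was larger by 1.62 for miR-30a-3p. With library totals miR-30a-3p alone was called with RELB knockdown. The miR-30a-5p call also ended with median-ratio size factors, DESeq2, the 10 CPM filter and several single libraries left out. The spheroid libraries are also the shallower ones, and that difference cannot be told apart from culture. Within spheroids the shNeg libraries are the shallowest, so depth cannot be told apart from knockdown there either.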

How the results depend on the processing

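The 3 chromosome 6 arms had log2 fold changes above 0 in the 4 knockdown comparisons under every alternative run, and 3 arms were called in adherent shRELA in each. Counts of arms called that moved by over 1.5 times were as follows, with main values in brackets. Adherent shRELB [0] had 1 with library totals, no filter, DESeq2, only the groups compared, an FDR of 0.05, or without spheroid shNeg replicate 1, an alternative chosen after seeing the data for the comparisons that do not hold that library. Spheroid shRELA [5] had 3 with library totals or a mean of at least 10 CPM. Spheroid shRELB [5] had 3 with library totals and 2 with only the groups compared. Spheroid against adherent had 5 for shNeg [8] with only the groups compared and 3 for shRELA [6] with the 10 CPM filter. Adherent shRELA against shRELB [2] had 4 with median-ratio size factors, DESeq2, only the groups compared, an FDR of 0.05, or without spheroid shNeg replicate 1, and the RELB interaction [4] had 1 with library totals. Leaving out 1 library gave 0 to 1 arms for adherent shRELB, 3 to 6 for spheroid shRELA (3 without shNeg replicate 1), 3 to 7 for spheroid against adherent with shRELA (3 without adherent shRELA replicate 4), 1 to 3 for spheroid shRELA against shRELB (1 without shRELB replicate 3) and 1 to 2 for the RELA interaction (2 without spheroid shNeg replicate 1). The cause of these shifts was not tested. No result that reversed was called in the fit reported. For miR-30d-5p the reversed values were -0.00854 (no filter) and -0.0502 (only the groups compared) in adherent shRELB, -0.0919 (median-ratio), -0.309 (totals), -0.180 (10 CPM filter) and -0.0918 (DESeq2) in spheroid shRELA, and -0.00282 (totals) in adherent shRELA against shRELB. For miR-30e-5p they were -0.214 (totals) and -0.0190 (10 CPM filter) in spheroid shRELA, -0.0415 (totals) in spheroid shRELB and -0.0395 (totals) in the RELB interaction. For miR-30b-5p in spheroid shRELB they were -0.112 (totals) and -0.00995 (only the groups compared). For miR-30d-3p they were -0.0942 (median-ratio), -0.248 (totals), -0.0951 (DESeq2) and -0.136 (only the groups compared) in spheroid shRELB and -0.0888 (totals) in the RELB interaction. With 1 library left out, miR-30d-5p ranged from -0.0666 to 0.0935 in adherent shRELB, -0.0744 to 0.260 in spheroid shRELA, -0.303 to 0.127 in spheroid shRELB, -0.0268 to 0.331 in spheroid shRELA against shRELB, -0.297 to 0.0172 in the RELA and -0.171 to 0.0796 in the RELB interaction. miR-30b-5p ranged from -0.206 to 0.691 and miR-30d-3p from -0.559 to 0.664 in spheroid shRELB, miR-30d-3p from -0.0969 to 1.094 in the RELB interaction, and miR-30e-5p from -0.157 to 0.0140 in spheroid shRELA against shRELB. Ratios that turned were miR-30b-5p to miR-30d-5p (-0.24 to 0.163 in adherent shRELA, -0.328 to 1.71 in spheroid shRELB), miR-30a-5p to miR-30a-3p (-0.00816 to 0.117 in adherent shRELB, -0.00154 to 0.118 in adherent shRELA against shRELB), miR-30d-5p to miR-30d-3p (-0.294 to 0.208 in adherent shRELA, -0.426 to 0.569 in spheroid shRELB), miR-30d-5p to miR-30e-5p (-0.293 to 0.0151 in adherent shRELA, -0.285 to 0.17 in spheroid shRELA), miR-30a-5p to miR-30e-5p (-0.181 to 0.195 between the shNeg cultures) and miR-30a-5p to miR-30d-5p (-0.0549 to 0.13 between the shRELB cultures). Replicate numbers were not taken as pairs in the main fit. Same-numbered libraries' deviations correlated at -0.494 to 0.345 over 335 miRNAs, and in no comparison were all 4 pairs over 0.1. With 4 pairs a comparison, this cannot exclude a pairing. With the replicate block, 3, 0, 5, 5, 8, 5, 3, 2, 3, 1 and 4 arms were called in the order of the comparisons (main 3, 0, 5, 5, 8, 6, 3, 2, 3, 1 and 4), and 44 of 72 ratios did not overlap, against 38, with 37 when 1 count was added. Over all miRNAs, only the groups compared gave 54 calls in adherent shRELA (main 34), 117 in adherent shRELB (64), 66 in spheroid shRELA (137), 41 in spheroid shRELB (121) and 150 in adherent shRELA against shRELB (99). The 10 CPM filter, which tests fewer miRNAs, gave 204 (382), 160 (295) and 132 (226) between the cultures, and an FDR of 0.05 gave 153 (99) and 107 (60) for shRELA against shRELB and 109 (69) and 129 (77) for the interactions. Without spheroid shNeg replicate 1 there were 98 in spheroid shRELA against shRELB. Library totals moved the median of all miRNAs from 0.09 to -0.25 in spheroid shRELA and from -0.26 to 0.17 between the shNeg cultures. They turned the higher to lower calls from 10 to 24 into 6 to 28 in adherent shRELA, 32 to 32 into 46 to 28 in adherent shRELB, 193 to 189 into 238 to 147 and 152 to 143 into 168 to 115 between the shNeg and shRELA cultures, 39 to 60 into 23 to 83 and 25 to 35 into 16 to 47 for shRELA against shRELB, and 39 to 30 into 19 to 50 and 42 to 35 into 17 to 72 for the interactions. Median-ratio size factors gave 47 to 88 in spheroid shRELA, 51 to 67 in spheroid shRELB, and 23 to 43 and 36 to 50 for the RELA and RELB interactions. Depth limits miR-30d-3p in spheroids and miR-30c-2-3p in spheroid shNeg, which rest on few counts.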
